A study of Mus musculus with 6 samples.

Results

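Tuft cells are rare chemosensory cells of the intestinal epithelium. They sense metabolites such as succinate from the gut lumen and answer with the cytokine IL-25 and with eicosanoids, the signaling lipids made from arachidonic acid. Cyclooxygenases and lipoxygenases start the synthesis of the prostanoid and the leukotriene branch, and terminal enzymes such as HPGDS and LTC4S, both of which use glutathione, finish single products. The same enzymes are also made by immune cells, among them mast cells, macrophages and neutrophils.

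A list of 10 genes covers the receptor *Sucnr1*, the taste G protein *Gnat3*, the transcription factors *Pou2f3* and *Gfi1b*, the marker kinase *Dclk1* and the eicosanoid enzymes *Ptgs1*, *Hpgds*, *Alox5*, *Alox5ap* and *Ltc4s*. Genes were taken by single symbol in the annotation of the array, and where a gene had several probe sets the brightest on average was read. This gave 9 of the 10 genes, among 19938 genes with a probe set of their own. Each of the 9 had 1 probe set. *Ptgs1*, the gene of cyclooxygenase-1, had none and was not analysed here.

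Villi isolated from the intestine were profiled at 5 days of age in 3 mutant and 3 control littermates, with 1 Affymetrix whole-transcript array per replicate. Mutants were *Trpm7* fl/fl;*Villin1-Cre* and controls *Trpm7* fl/fl, so both groups carried the floxed alleles and only mutants carried the Cre. The *Villin1* promoter directs Cre to the intestinal epithelium, whereas other cells of the villus keep *Trpm7*. GEO's labels name the background C57BL/6, whereas the methods give another strain for the floxed line. Values are log2 signals as deposited, without detection calls, and a difference is always mutant minus control. "Fell" and "rose" mean an adjusted p of 0.05 or less from limma, adjusted over all 30177 probe sets.

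The signal of the targeted gene *Trpm7* was 8.03, 7.79 and 7.88 in mutant arrays and 9.11, 8.96 and 9.03 in control arrays. The sources do not say whether its probe set covers the deleted part. Markers of epithelium were high on all arrays, with *Vil1* between 12.39 and 12.66 in mutant and between 12.23 and 12.28 in control arrays. Of 10 epithelial markers 5 rose and 1 fell, beside 8.04% and 8.82% of all probe sets. The rises were the keratins *Krt20* (1.37), *Krt19* (1.12) and *Krt8* (0.79) and the adhesion genes *Cdh1* (0.34) and *Epcam* (0.27). *Cdx2* fell (−0.40). The summed linear signal of the 10 markers ranged from 43657.7 to 47923.2 in mutant arrays and from 32746.5 to 33360.5 in control arrays. The part of this shift in the results was not tested. Control replicates 2 and 3 held both *Xist* (9.82 and 9.66) and the Y-linked *Uty* (7.64 and 7.72), whereas mutant replicates 2 and 3 held *Uty* (8.10 and 8.38) with little *Xist* (4.76 and 5.26). Replicate 1 of both groups held *Xist* alone, at 10.18 in the mutant and 10.48 in the control, with *Uty* at 3.88 and 4.24. Whether control replicates 2 and 3 were single pups is not known, so n counts arrays and p-values measure the spread between these arrays.

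In mutant villi, *Sucnr1*, *Hpgds* and *Ltc4s* fell and *Alox5ap* rose. The remaining 5 measured genes, *Dclk1*, *Pou2f3*, *Gfi1b*, *Gnat3* and *Alox5*, did not pass the test, and their groups overlapped. Thus 3 of 9 genes fell, where 8.82% of all probe sets fell, and 1 of 9 rose, where 8.04% of all probe sets rose. In the same 3 genes all mutant arrays lay below all control arrays, as in 17.6% of all probe sets, and in *Alox5ap* all lay above, as in 16.9%. The median difference of the 9 genes was −0.03 on the log2 scale, beside 0.005 for all genes with a probe set of their own. Of those 19938 genes, 2018 fell and 1873 rose. The members and the lists below were chosen with earlier results of these data known, so such shares only describe them. Since RNA came from whole villi, fewer cells of a type and less RNA per cell cannot be told apart.

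**Figure D1:**
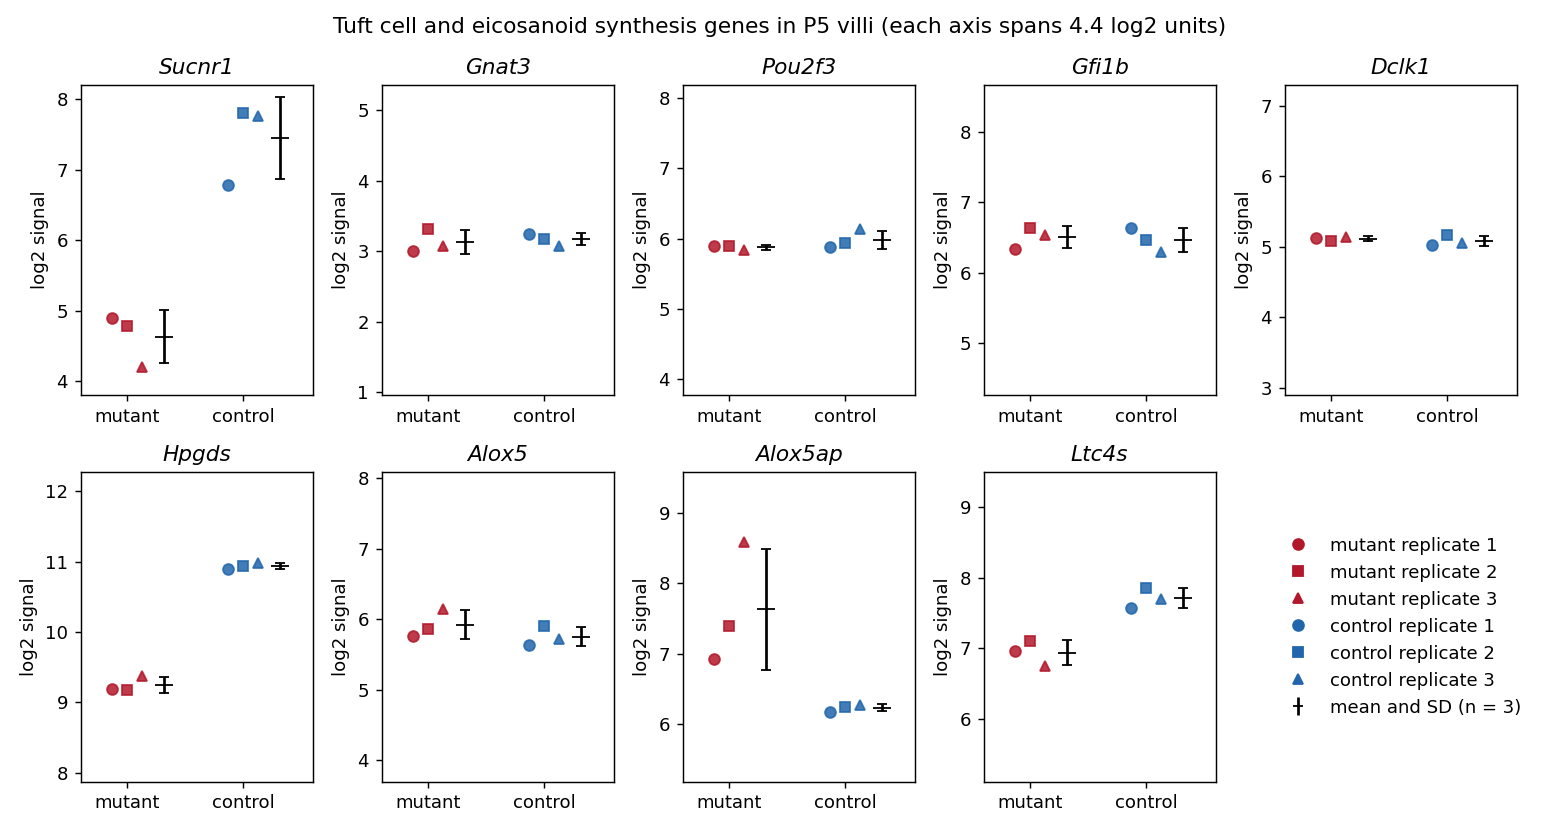
Log2 signal of the 9 measured genes on each array, mutant left of control, with the mean and SD of 3 arrays beside the points and the same span on every vertical axis. *Sucnr1*, *Hpgds* and *Ltc4s* lie lower on all mutant arrays, *Alox5ap* lies higher with its top value of 8.59 in mutant replicate 3, and the other 5 genes overlap.

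*Sucnr1* encodes the succinate receptor through which tuft cells of the small intestine detect succinate. Its log2 signal was 4.90, 4.79 and 4.20 in mutant arrays and 6.78, 7.81 and 7.76 in control arrays. The highest mutant value thus lay almost 2 log2 units under the lowest control value. Its mean was 4.63 ± 0.38 in mutant villi and 7.45 ± 0.58 in control villi (SD, n = 3 each), a 7.06-fold lower signal (difference −2.82, 95% interval −3.49 to −2.15, adjusted p = 0.000661 from limma). Between the replicates without Y-linked signal, replicate 1 of each group, the difference was −1.88, against −3.29 between the means of replicates 2 and 3. Leaving out any 1 array gave differences between −3.16 and −2.61. All 3 mutant values lay under the arrays' medians of 6.24 to 6.3, so the ratio is one of signals and not of transcript amounts.

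*Gnat3*, the alpha subunit of gustducin, couples taste receptors to the signaling cascade of chemosensory cells. It had the lowest signals of the list, 3.00, 3.32 and 3.08 in mutant arrays and 3.25, 3.17 and 3.08 in control arrays. The groups overlapped, with a difference of −0.03 (95% interval −0.27 to 0.20, adjusted p = 0.868 from limma).

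*Pou2f3* is the transcription factor without which tuft cells do not form. Its signal was 5.90, 5.89 and 5.83 in mutant arrays and 5.88, 5.93 and 6.13 in control arrays, and only control replicate 3 stood slightly higher. The difference was −0.11 (95% interval −0.31 to 0.09, adjusted p = 0.473 from limma). *Gfi1b*, a transcriptional repressor of tuft cells that also acts in the erythroid and megakaryocyte lineages, gave 6.34, 6.64 and 6.54 in mutant arrays and 6.63, 6.47 and 6.29 in control arrays. Both groups covered the same range (difference 0.04, 95% interval −0.22 to 0.31, adjusted p = 0.847 from limma).

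*Dclk1*, the kinase most used as a label of tuft cells, had a signal of 5.12, 5.08 and 5.14 in mutant arrays and 5.03, 5.16 and 5.05 in control arrays. The 6 arrays lay within 0.13 of each other, and the difference was 0.03 (95% interval −0.13 to 0.20, adjusted p = 0.81 from limma). *Gnat3*, *Pou2f3*, *Dclk1* and *Alox5* lay under the median on every array. A probe set gives some signal without its transcript, as *Uty* did at 3.88 and 4.24, and whether these 4 genes lay above background was not tested. Their intervals therefore bound a change in signal and not in transcript amount.

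*Hpgds*, hematopoietic prostaglandin D synthase, turns the cyclooxygenase product into prostaglandin D and belongs to the sigma class of glutathione transferases. It gave 9.19, 9.17 and 9.38 in mutant arrays and 10.90, 10.93 and 10.98 in control arrays. Both groups were tight, and the gap between them was far wider than the spread within either. The mean was 9.25 ± 0.12 in mutant villi and 10.94 ± 0.04 in control villi (SD, n = 3 each), a 3.23-fold lower signal (difference −1.69, 95% interval −1.88 to −1.50, adjusted p = 3.34e-05 from limma). *Hpgds* was above the median on all 6 arrays. The difference was nearly the same in replicate 1 (−1.71) and between replicates 2 and 3 of each group (−1.68).

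*Ltc4s* encodes leukotriene C synthase, which joins glutathione to the leukotriene precursor and so makes the first of the cysteinyl leukotrienes. Its signal was 6.96, 7.10 and 6.75 in mutant arrays and 7.57, 7.86 and 7.70 in control arrays. The mutant arrays were all lower, by a smaller step than in *Hpgds*. The mean was 6.94 ± 0.18 in mutant villi and 7.71 ± 0.15 in control villi (SD, n = 3 each), a 1.71-fold lower signal (difference −0.77, 95% interval −1.04 to −0.51, adjusted p = 0.00328 from limma). *Ltc4s* lay above the median on all 6 arrays, and differed by −0.61 in replicate 1 and by −0.855 between replicates 2 and 3 of each group.

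*Alox5*, the gene of 5-lipoxygenase, gave 5.76, 5.86 and 6.15 in mutant arrays and 5.64, 5.90 and 5.72 in control arrays. Mutant replicate 3 was the highest of the 6, and the groups overlapped (difference 0.17, 95% interval −0.10 to 0.44, adjusted p = 0.4 from limma). *Alox5ap*, whose product presents arachidonic acid to 5-lipoxygenase, gave 6.92, 7.39 and 8.59 in mutant arrays and 6.18, 6.24 and 6.28 in control arrays. Control arrays were nearly equal, while mutant arrays spread over more than 1.5 log2 units. Its mean was 7.63 ± 0.86 in mutant villi and 6.23 ± 0.05 in control villi (SD, n = 3 each), a 2.64-fold higher signal (difference 1.40, 95% interval 0.57 to 2.23, adjusted p = 0.0334 from limma). Leaving out mutant replicate 2, or any 1 control replicate, ended this call, with an adjusted p between 0.0712 and 0.0879. Without mutant replicate 3, the highest, the difference was 0.92 and the call was kept (adjusted p = 0.00649). It differed by 0.74 in replicate 1 and by 1.73 between replicates 2 and 3 of each group.

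The sequences 250 bases upstream of the annotated starts are shown for the 3 genes that fell, since they moved in the same direction. They come from RefSeq (GRCm38.p6), written 5′ to 3′ on the strand of the gene, and capitals mark the octamer ATGCAAAT, the site known for POU factors such as POU2F3. Of the 10 genes, 8 had an entry, and *Pou2f3* and *Alox5ap* are named only.
Sucnr1, chr3:60081619-60081868, plus strand: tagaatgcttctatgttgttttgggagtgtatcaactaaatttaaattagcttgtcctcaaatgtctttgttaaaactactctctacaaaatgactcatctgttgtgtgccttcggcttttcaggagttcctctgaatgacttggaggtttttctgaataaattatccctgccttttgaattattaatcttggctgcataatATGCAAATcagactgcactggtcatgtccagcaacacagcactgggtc
Hpgds, chr6:65144731-65144980, minus strand: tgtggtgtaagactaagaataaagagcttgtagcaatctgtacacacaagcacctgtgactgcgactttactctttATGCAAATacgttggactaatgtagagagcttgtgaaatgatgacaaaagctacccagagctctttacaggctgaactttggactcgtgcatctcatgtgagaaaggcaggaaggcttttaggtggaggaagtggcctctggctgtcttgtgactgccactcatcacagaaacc
Ltc4s, chr11:50238533-50238782, minus strand: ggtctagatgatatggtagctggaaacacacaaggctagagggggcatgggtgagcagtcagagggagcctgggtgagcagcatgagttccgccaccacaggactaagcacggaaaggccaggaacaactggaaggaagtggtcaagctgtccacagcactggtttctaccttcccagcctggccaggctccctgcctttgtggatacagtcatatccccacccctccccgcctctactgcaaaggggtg
The octamer, searched on both strands, was present once in *Sucnr1*, from base −48 to base −41 before the start, and once in *Hpgds*, from base −174 to base −167. It was not in these windows of *Ltc4s*, *Dclk1*, *Gfi1b*, *Gnat3*, *Alox5* or *Ptgs1*. Of all 32851 upstream windows of this length, 1.6% held it. The antioxidant response element TGACNNNGC, the site of NRF2, was present in *Gfi1b* among these genes and in 10.2% of all windows. A match of letters is a description and was not tested as a binding site.

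Most other tuft cell markers did not pass the test. Of 34 listed, 32 were measured, 3 fell, none rose and 29 were not called, with a median difference of −0.02. The 3 falls are near the 8.82% of all probe sets that fell. At an unadjusted p under 0.05, *Fyb1* (−0.22) was lower as well and none was higher. *Cd24a*, a surface glycoprotein also made by other epithelial cells, had 8.27, 8.44 and 8.68 in mutant arrays and 9.05, 9.69 and 9.88 in control arrays (difference −1.08, adjusted p = 0.0106 from limma). *Strip2* (−0.73) and *Inpp5j*, an inositol phosphatase (−0.45), fell as well. *Strip2* lay under the median on all arrays.

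*Trpm5*, the cation channel of tuft cell taste signaling, gave 5.02, 5.19 and 4.86 in mutant arrays and 4.73, 5.13 and 4.99 in control arrays. *Il25*, the cytokine by which tuft cells activate innate lymphoid cells, gave 5.89, 6.33 and 5.95 in mutant arrays and 6.19, 5.92 and 5.58 in control arrays. *Avil*, encoding the actin-binding protein advillin, gave 6.17, 5.87 and 5.80 in mutant arrays and 6.06, 5.94 and 6.12 in control arrays. The groups overlapped in each of these genes. *Trpm5*, *Il25* and *Avil* were chosen after their values were seen, as well-known markers that were not called. Differences of the 29 markers not called lay between −0.22 and 0.16, and their intervals between −0.42 and 0.56. Of the 32 markers, 22 lay under the median on all 6 arrays, and whether they lay above background was not tested. *Sucnr1* lay above the median on the 3 control arrays and *Hpgds* on all 6.

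**Figure D2:**
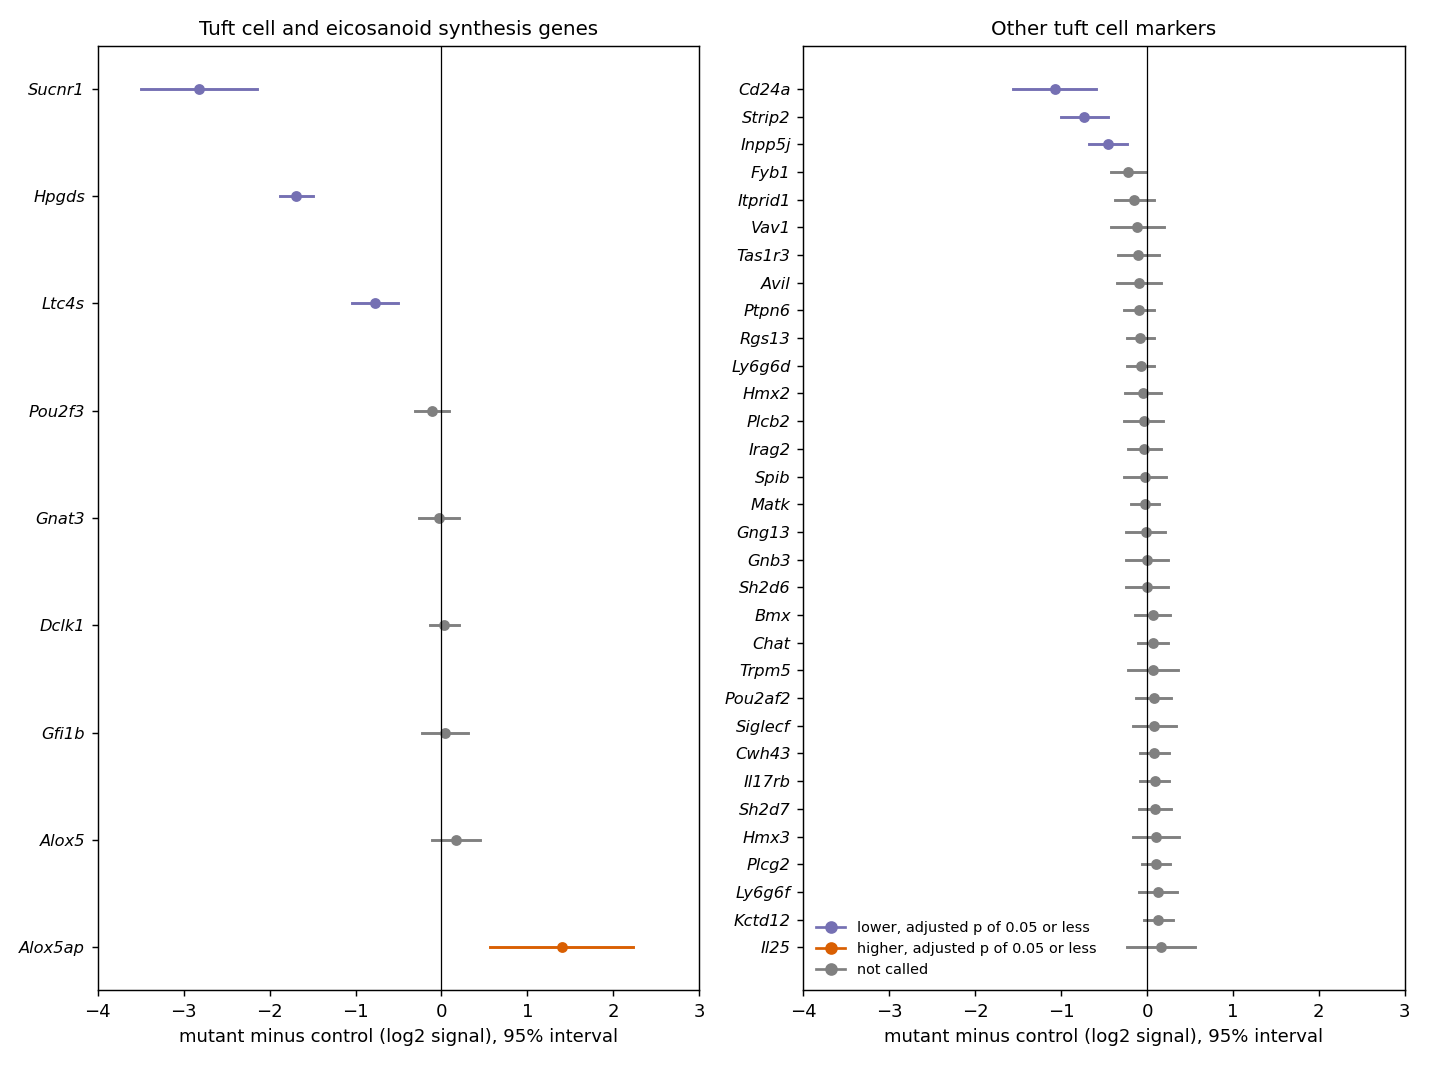
Difference in log2 signal, mutant minus control, with its 95% interval, for the 9 measured genes (left) and 32 other tuft cell markers (right), colored by the call at an adjusted p of 0.05 or less. *Sucnr1* lies at −2.82, *Hpgds* at −1.69 and *Ltc4s* at −0.77, while 29 of the 32 other markers lie between −0.22 and 0.16.

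Tuft cells act on innate lymphoid cells, which return IL-13 to the epithelium. Of 11 measured genes of this type 2 circuit, none rose or fell, with differences between −0.17 and 0.34 (limma). At an unadjusted p under 0.05, 1 passed, *Il4ra*, at 0.25. Of the 11 genes, 8 lay under the median on every array, and whether they lay above background was not tested.

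In the eicosanoid pathway around these genes, 11 genes rose, 4 fell and 50 of 65 were not called, with a median difference of 0.07. Of all probe sets 8.04% rose and 8.82% fell, so the 4 falls did not exceed the share over the arrays. They were all in the list of phospholipases A2, of which 20 were measured. Some enzymes of this family free arachidonic acid from membranes. *Plaat3* gave 6.42, 6.28 and 6.41 in mutant arrays and 7.34, 7.88 and 7.70 in control arrays (difference −1.27, adjusted p = 0.000722 from limma). *Pla2g15*, the lysosomal enzyme (−0.89), *Pla2g6*, the calcium-independent enzyme (−0.71), and *Pla2g10*, a secreted enzyme (−0.39), fell too. *Pla2g12b*, a family member known for its role in lipoprotein secretion, rose (0.88, adjusted p = 0.000231 from limma). The cytosolic enzyme *Pla2g4a*, named outside the rule after its values were seen, did not pass the test (difference 0.08, adjusted p = 0.642 from limma). At an unadjusted p under 0.05 from limma, *Pla2g2a* was higher (0.33), and it was not called. Of the 20 phospholipases A2, 10 lay under the median on all 6 arrays, and whether they lay above background was not tested.

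Among 16 measured genes of prostanoid synthesis and breakdown, 5 rose and none fell, beside 8.04% and 8.82% of all probe sets. *Ptgs2*, the gene of the inducible cyclooxygenase-2, gave 8.49, 8.0 and 8.72 in mutant arrays and 6.36, 6.94 and 6.80 in control arrays. The groups stood apart by more than 1 log2 unit (mean 8.40 ± 0.37 in mutant and 6.70 ± 0.30 in control villi, SD, n = 3 each; 3.26-fold higher, adjusted p = 0.00135 from limma). *Ptgr1*, a reductase that inactivates prostaglandins and leukotriene B and is a target of NRF2, gave 11.50, 11.67 and 10.32 in mutant arrays and 8.70, 8.80 and 8.92 in control arrays (5.12-fold higher, adjusted p = 0.002 from limma). *Ptgis*, prostacyclin synthase (0.43), and *Abcc4*, an exporter of prostanoids (0.39), rose by less. *Ptges3* rose through 1 of its 3 probe sets (0.32), while the other two did not pass the test (0.09 and 0.28). The other terminal synthases, *Ptges*, *Ptges2*, *Ptgds* and *Tbxas1*, were not called. At an unadjusted p under 0.05 from limma, *Ptges* (0.34), *Hpgd* (0.28), *Cbr1* (0.22) and *Ptgds* (0.20) were higher and *Prxl2b* (−0.25) was lower. Of the 16 genes, 3 lay under the median on all 6 arrays, *Ptgds* and *Tbxas1* among them, and whether they lay above background was not tested.

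Of 16 measured further genes of the lipoxygenase and leukotriene branch, 5 rose and none fell, beside the same shares of all probe sets. *Mgst2*, a microsomal glutathione transferase that can also make leukotriene C, gave 10.88, 10.59 and 10.35 in mutant arrays and 8.36, 8.44 and 8.45 in control arrays (4.56-fold higher, adjusted p = 6.46e-05 from limma). It thus stood opposite to *Ltc4s*, whose product catalyzes the same step. *Dpep1*, the dipeptidase that turns leukotriene D into leukotriene E, rose by 1.48, *Cyp4f14*, an omega-hydroxylase, by 0.76, and *Dpep2* by 0.56 through 1 of its 2 probe sets. That probe set of *Dpep2* lay under the median on all 6 arrays. *Ptgr1* belongs to this list too. The other lipoxygenases did not pass the test, and all of those measured but *Alox15* lay under the median on all 6 arrays. Of the 16 genes, 8 lay under the median on every array, and whether they lay above background was not tested. At an unadjusted p under 0.05 from limma, *Lta4h* was lower (−0.28) and *Ggt5* higher (0.21), and neither was called. Among 14 measured receptors 1 rose and none fell, beside 8.04% and 8.82% of all probe sets. It was *Ptger4*, a receptor of prostaglandin E, with 9.86, 10.15 and 9.39 in mutant arrays and 9.09, 8.97 and 8.83 in control arrays (difference 0.84, adjusted p = 0.0161 from limma). The receptors of prostaglandin D and of cysteinyl leukotrienes were not called. At an unadjusted p under 0.05 from limma, *Ptgdr* (−0.33) and *Ltb4r1* (−0.32) were lower and *Cysltr1* (0.34) was higher. Of the 14 receptors, 10 lay under the median on all 6 arrays, and whether they lay above background was not tested.

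**Figure D3:**
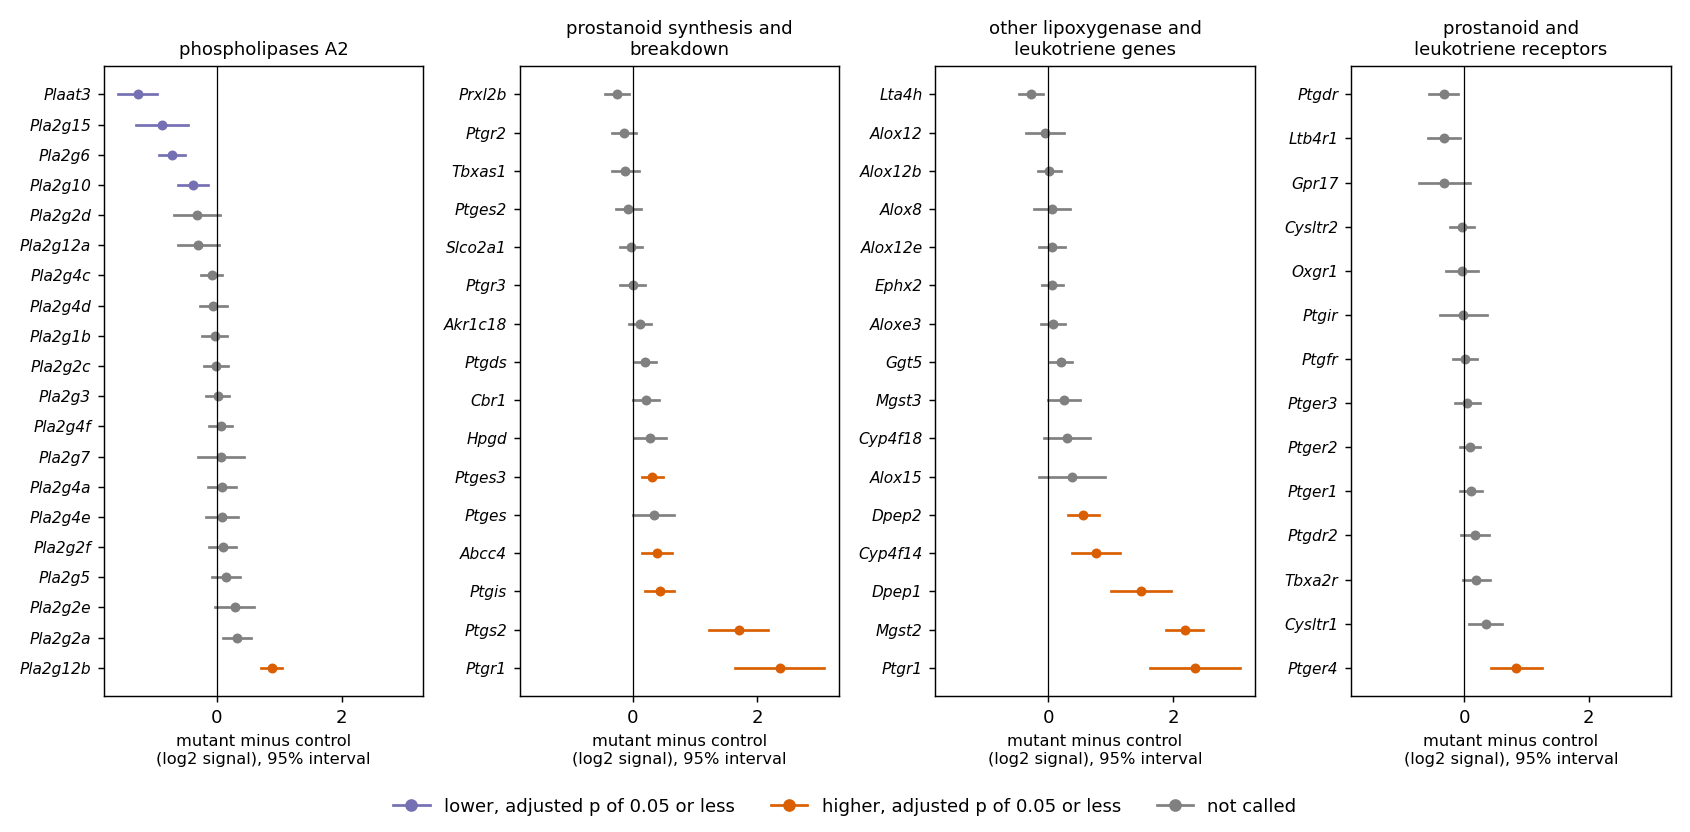
Difference in log2 signal, mutant minus control, with its 95% interval, for the genes of 4 eicosanoid lists, colored by the call at an adjusted p of 0.05 or less. The 4 falls all lie among phospholipases A2, with *Plaat3* at −1.27, and the largest rises are those of *Ptgr1* (2.36), *Mgst2* (2.19) and *Ptgs2* (1.70).

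*Alox5ap* moved with markers of neutrophils. Of 13 such markers 6 rose, where 8.04% of all probe sets rose, and none fell, with *S100a8* (3.31), *S100a9* (3.46), *Retnlg* (3.30), *Mmp8* (2.11) and *Csf3r* (0.69) among them, and their summed linear signal ranged from 1291.3 to 4221.0 in mutant arrays and from 672.8 to 801.1 in control arrays. *S100a8* gave 6.89, 8.35 and 9.69 in mutant arrays and 5.19, 4.86 and 4.96 in control arrays, so that mutant replicate 3 was highest, as for *Alox5ap*. In 10 of the 13 markers mutant replicate 3 was the highest of the 6 arrays, beside 13.1% of all probe sets. That share is not a like baseline, since a gene higher on all mutant arrays must peak in a mutant. All mutant arrays lay above all control arrays in 10 of the 13 markers, and in 16.9% of all probe sets. Mutant replicate 3 was also the highest for 8 of 9 pan-leukocyte genes, of which none rose or fell in limma's test and 0 passed at an unadjusted p under 0.05. The part of neutrophils in the rise of *Alox5ap* was not tested.

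Mast cells also express *Hpgds*, *Ltc4s* and *Alox5ap*. Of 12 mast cell markers 3 fell and 1 rose, beside 8.82% and 8.04% of all probe sets, and their summed linear signal ranged from 389.2 to 496.4 in mutant arrays and from 411.2 to 435.2 in control arrays. *Mcpt1*, the mucosal mast cell protease, gave 4.22, 4.14 and 4.15 in mutant arrays and 4.67, 5.15 and 5.19 in control arrays (difference −0.83, adjusted p = 0.00524 from limma). *Hdc*, histidine decarboxylase, gave 5.62, 6.03 and 7.24 in mutant arrays and 4.95, 4.98 and 4.92 in control arrays, again highest in mutant replicate 3. The defining markers *Cpa3*, *Fcer1a* and *Ms4a2* were not called, and 11 of the 12 lay under the median on all arrays. Of 13 macrophage and monocyte markers *Adgre1* fell (−0.54) and none rose, with *Csf1r* and *C1qa* not called. *Cd14*, the lipopolysaccharide co-receptor, gave 7.25, 7.02 and 9.41 in mutant arrays and 6.03, 6.12 and 6.33 in control arrays. It too was highest in mutant replicate 3 and its groups did not overlap, but it was not called (difference 1.73, adjusted p = 0.0698 from limma). At an unadjusted p under 0.05, *Cd163* (0.33) and *Ms4a7* (−0.32) passed as well. The lists of eosinophils, lymphocytes and erythroid cells held no call by limma, and at an unadjusted p under 0.05 they held 1 gene each, *Ccr3* (−0.24), *Cd3g* (−0.46) and *Rhd* (0.32). Under the median on all 6 arrays lay 6 of 6 measured eosinophil, 10 of 11 lymphocyte and 5 of 7 erythroid markers. Whether they lay above background was not tested. Of 5 platelet markers *Gp9* fell (−0.65). Of 8 markers of enteric neurons and glia *S100b* fell, with 6.25, 6.03 and 6.11 in mutant arrays and 7.7, 8.5 and 8.36 in control arrays. Among controls *Strip2* and *Inpp5j* were highest in replicate 1. *S100b* was lowest there, as were *Sucnr1*, *Ltc4s*, *Cd24a*, *Plaat3* and *Mcpt1* and, by little, *Hpgds* (10.90 against 10.93 and 10.98). These genes were picked after their values were seen, and *Ptgs2*, which rose, was also lowest in control replicate 1. The share of all probe sets with this order was not counted. Of 12 mesenchymal and endothelial markers *Dcn* (1.03) and *Pdgfra* (0.56) rose. Each of these counts, from macrophages on, stands beside the same 8.82% of falls and 8.04% of rises among all probe sets. The part of all these cell types, mast cells included, in the changes of *Sucnr1*, *Hpgds*, *Ltc4s* and *Alox5ap* was not tested.

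Among secretory cells of the epithelium, markers of goblet cells fell, as did *Sucnr1*, *Hpgds* and *Ltc4s*. Of 9 measured, 7 fell, where 8.82% of all probe sets fell, and none rose (median difference −1.55), with *Clca1* (−3.46), *Tff3* (−2.78) and *Muc2* (−2.69) lowest. Their summed linear signal ranged from 4004.7 to 4796.8 in mutant arrays and from 23616.5 to 25875.0 in control arrays. *Zg16* (−0.57) and *Ccn3* (0.16) were not called. Among controls, *Clca1*, *Tff3*, *Spink4*, *Atoh1* and *Spdef* were highest in replicate 1, where *Sucnr1* was lowest. *Agr2* was lowest there too, and *Muc2* lay between. Of 9 enteroendocrine markers, *Chga* rose by 0.41 and none fell, beside 8.04% and 8.82% of all probe sets. Whether the fall of *Sucnr1*, *Hpgds* and *Ltc4s* differs from that of the goblet cell markers was not tested, nor was the part of goblet cells in it.

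**Figure D4:**
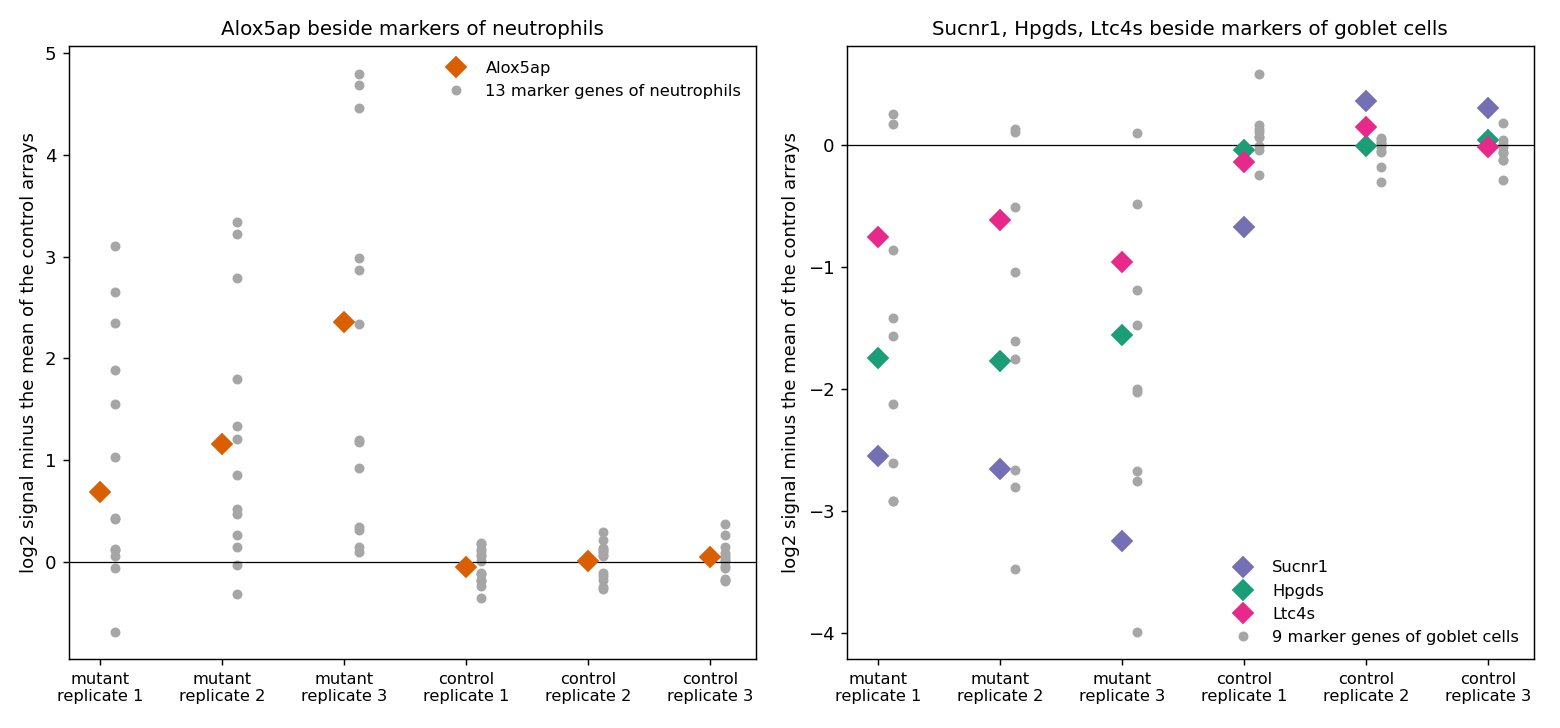
Log2 signal on each array minus the mean of the control arrays, for *Alox5ap* beside 13 neutrophil markers (left) and for *Sucnr1*, *Hpgds* and *Ltc4s* beside 9 goblet cell markers (right). *Alox5ap* and 10 of the 13 neutrophil markers were highest in mutant replicate 3, while 7 of the 9 goblet cell markers fell.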

How the data were processed

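Expression was measured in villi of 3 mutant and 3 control littermates, 1 array each, grouped by the titles in GEO. The values the authors deposited are normalized log2 signals of probe sets, given to 0.01. Total RNA was labelled with biotin by the whole-transcript protocol. The sources used here name no software, background correction, summarisation or detection limit. The number of arrays limits the precision.

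Of 30177 probe sets, 21789 had 1 gene symbol in the platform's annotation, 1621 several and 6767 none listed. Symbols of 21698 were updated through Entrez IDs with a RefSeq table (GRCm38.p6). The 2 groups were fitted with lmFit and eBayes of limma 3.58.1 (R 4.3.3, prior degrees of freedom 3.92), and p-values of all probe sets were adjusted by Benjamini-Hochberg. The smallest p that an exact permutation test reaches with 3 arrays per group is 0.1. Lists are described by counts and medians. Members, lists and the rule for named genes (members, listed genes with the largest called differences, defining markers) were chosen with earlier results of these data known. Other genes, *Pla2g10*, *Ptges3* and *Dpep2* among them, were named after their values were seen. *Irag2*, *Fyb1*, *Pou2af2* and *Ptgr3* were read under older symbols.

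On simulated data with 200 changed among 30177 probe sets, the share called was 58.2% at 1.5-fold, 85.1% at 2-fold and 92.4% at 3-fold, beside 4 false calls. In the real data 5088 probe sets were called. The adjustment depends on how many change, so these shares do not give the rate of detection in the real data. Alternatives were other estimates of variance, array weights, a replicate block, other normalization, filters, an offset, a 2-fold threshold, other probe sets, single replicates left out, and control replicates 2 and 3 averaged. Tables and figures were made with pandas 2.3.3 and matplotlib 3.10.9 in Python 3.11.15.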

Additional observations from a re-analysis of the deposited data

How the results depend on the processing

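*Sucnr1* and *Ltc4s* kept an adjusted p of 0.05 or less, and their direction, in every other fit that tested them (adjusted p up to 0.0155), and so did *Hpgds* (adjusted p up to 0.000521). *Sucnr1* was not tested without dim probe sets. *Alox5ap* was called in 8 of 15 such fits, with differences from 0.92 to 1.76. It was not called by eBayes with trend and robust estimation (adjusted p = 0.0923), with an offset of 32 on the linear scale (adjusted p = 0.0733) or with control replicates 2 and 3 averaged (adjusted p = 0.0841). The count of members that rose was 0 there and from 0 to 1 without single replicates, and the cause was not tested. *Dclk1*, *Pou2f3*, *Gfi1b*, *Gnat3* and *Alox5* were called in none. With median centring *Dclk1* was −0.0167 and *Gfi1b* −0.00667, with quantile normalization *Gnat3* was 0.0231, and without single replicates *Gfi1b* ran from −0.0433 to 0.127 and *Gnat3* from −0.127 to 0.0333.

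With the replicate block, 2576 probe sets fell and 2381 rose, beside 2661 and 2427 without it, and no member's call changed. Same-numbered arrays deviated together with correlations of 0.174, 0.039 and 0.119, beside −0.162 to 0.085 between arrays of different numbers. These correlations do not settle whether the numbers pair the samples. The labels do not say so, and the main fit did not pair them. Without single replicates, 1688 to 2348 probe sets fell and 1561 to 2037 rose. Median centring gave 36.6% of calls as rises, beside 47.7%. Among eicosanoid genes, 7 fell with median centring, 6 to 10 rose without single replicates and 7 rose with control replicates 2 and 3 averaged. With a change of at least 2-fold also required, 354 probe sets fell and 408 rose, 2 members fell, as *Ltc4s* is under 2-fold, 1 other tuft cell marker fell, and 1 eicosanoid gene fell and 4 rose. Signals under the arrays' median have no known relation to background.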
